A study of Homo sapiens with 9 samples.

Results

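Stanniocalcin 2 (STC2), stanniocalcin 1 (STC1), growth differentiation factor 15 (GDF15) and fibroblast growth factor 21 (FGF21) are secreted factors, and their 4 genes were followed among the 60880 gene IDs counted in SNU5 cells. They were listed by symbol as stress-induced secreted factors and were chosen by a rule that used their levels under antibody alone, so those differences are given as a description with no test. SNU5 is an established human gastric carcinoma line, here kept in medium with fetal bovine serum. Cells were exposed for 24 h to gold nanorods carrying ramucirumab through polyethylene glycol (AuNR-PEG-Ab, NR group), to gold nanospheres carrying it in the same way (AuSP-PEG-Ab, SP group), or to ramucirumab alone (Ab group), all at 8 μg/mL antibody. Ramucirumab is an antibody against the receptor VEGFR2, and every group received it. Each group had 3 poly-A RNA-seq libraries, and there was no untreated group. The labels do not say whether the libraries of a group came from separate cultures. The study speaks of biological replications, and its reporting summary of in vitro experiments repeated independently at least 3 times. The p-values measure the spread between these libraries. Library totals lay between 13863155 counts (NR 2) and 26318227 counts (Ab 2).

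The stanniocalcins are glycoproteins that block the pappalysin proteases, which otherwise cut insulin-like growth factor (IGF)-binding proteins and free IGF. GDF15, a distant member of the transforming growth factor β (TGF-β) family, acts on the hindbrain receptor GFRAL with its co-receptor RET, and FGF21 acts on FGF receptors with the co-receptor β-klotho. In the integrated stress response (ISR), kinases phosphorylate eIF2α, translation of ATF4 rises, and ATF4 with its partners is known to act on STC2, GDF15 and FGF21, while hypoxia-inducible factors, EGR1 and PPARα are known to act on some of the 4.

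The 250 bases before the start of transcription are shown for STC2, GDF15 and FGF21 because the counts of these genes were all highest in the Ab group. The sequences are from RefSeq (GRCh38.p14), which held 3 of the 4 members, and run 5′ to 3′ on the strand of the gene. They lie at chr5:173328415-173328664 (minus strand) for STC2, chr19:18385908-18386157 (plus strand) for GDF15 and chr19:48755274-48755523 (plus strand) for FGF21. Capitals mark matches to the motifs searched.
STC2: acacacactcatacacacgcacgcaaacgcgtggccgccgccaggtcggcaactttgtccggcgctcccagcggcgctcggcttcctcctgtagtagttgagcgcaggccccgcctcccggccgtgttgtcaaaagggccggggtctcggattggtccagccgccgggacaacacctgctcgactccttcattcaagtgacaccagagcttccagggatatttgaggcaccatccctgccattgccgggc
GDF15: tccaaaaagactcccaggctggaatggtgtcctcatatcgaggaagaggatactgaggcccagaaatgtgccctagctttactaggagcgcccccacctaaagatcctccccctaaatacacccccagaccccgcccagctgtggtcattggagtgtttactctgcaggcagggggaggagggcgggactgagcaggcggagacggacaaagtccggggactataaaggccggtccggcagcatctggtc
FGF21: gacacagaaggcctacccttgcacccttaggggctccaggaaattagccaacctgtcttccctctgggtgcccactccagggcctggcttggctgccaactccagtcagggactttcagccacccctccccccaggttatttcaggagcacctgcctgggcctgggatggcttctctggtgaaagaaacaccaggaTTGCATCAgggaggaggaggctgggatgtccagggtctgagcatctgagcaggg
The motifs described here, searched on both strands, were the ATF4-CEBP composite element TGATGNAA, the full cyclic AMP response element TGACGTCA, the hypoxia-inducible factor core ACGTG, the antioxidant response element TGACNNNGC, the AP-1 site TGANTCA, the ER stress element and the PPAR direct-repeat element. A single match was found, TTGCATCA in FGF21, which is TGATGNAA read on the opposite strand, from 54 to 47 bases before the start. Among 35114 promoters of the same length, 3.14% held TGATGNAA, 1.65% TGACGTCA, 18.5% ACGTG, 10.9% TGACNNNGC, 6.57% TGANTCA, 0.074% the ER stress element and 0.0171% the PPAR element. A match describes letters only, and the windows of STC2 and GDF15 did not hold these letters. The windows also differed in composition, with 63.6% G and C and 22 CpG pairs in STC2, 58.4% and 9 in GDF15, and 60.0% and 0 in FGF21.

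The labelled cell type was checked first. Of 12 epithelial markers, 8 passed the filter on low counts, led by keratin 8 (KRT8), while keratin 19 (KRT19) had at most 1 count in any library. The summed epithelial markers lay at 2779 to 2963 CPM (counts scaled to library size) in the 6 gold-treated libraries and at 1276 to 1327 CPM in Ab. KRT8 rose by log2 fold changes of 1.52 in NR and 1.59 in SP relative to Ab, EPCAM by 1.68 and 1.60, and MUC1 by 1.86 in both, all called (adjusted p of at most 0.05 and at least 2-fold, as for every call here), and ELF3 was called higher in SP. MET, a receptor kinase, stood at 235 ± 1.73 CPM in the NR group, 245 ± 6.12 in the SP group and 253 ± 13.8 in the Ab group (SD, n = 3 each). KDR, the gene of VEGFR2, had 1 count in NR 3 and 0 in the other 8 libraries. Markers of other cells moved between the groups too. Of 6 fibroblast markers, lumican (LUM), decorin (DCN) and PDGFRB were called higher in both gold-treated groups than in Ab, where 12.4% (NR) and 12.6% (SP) of all genes were. COL1A1, COL1A2 and COL3A1 were not called, COL1A2 with 37, 0 and 0 counts in NR, 49, 49 and 43 in SP, against 198, 278 and 33 in Ab. Of the 4 endothelial markers with a gene ID the 2 tested, VWF and CDH5, were also called higher. The summed fibroblast markers lay at 105 to 118 CPM in the 6 gold-treated libraries and at 18.0 to 46.1 CPM in Ab, with COL1A1 the most abundant. The summed endothelial markers lay at 20.7 to 24.1 and at 3.59 to 5.13 CPM, with CDH5 the most abundant, and TEK and ERG had at most 3 counts in any library. Of 8 leukocyte markers, 5 were under the floor of 3 counts in every library. Mitochondrial transcripts took 4.36 to 4.66% of the counts in NR and SP and 3.41 to 3.71% in Ab. The part of these shifts in the values below was not tested, and in bulk RNA fewer cells making a transcript and less of it per cell cannot be told apart.

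STC2 was the most abundant member in the Ab group and, on a per-gene basis, 1 of the transcripts with the greatest difference between groups. The gene (ENSG00000113739) lies at chr5:172741726-172755450 on the minus strand (GRCh37), is protein-coding and shares no exon bases with other genes. STC2 had 925, 488 and 495 counts in NR 1, 2 and 3, and 859, 747 and 695 counts in SP 1, 2 and 3. It had 14380, 19292 and 15294 counts in Ab 1, 2 and 3. All 3 Ab libraries were far above all 6 gold-treated libraries. In CPM, STC2 averaged 33.9 ± 2.63 in the NR group, 35.0 ± 3.77 in the SP group and 743 ± 4.57 in the Ab group (SD, n = 3). By CPM it ranked 138 among all gene IDs in Ab, but 6102 in NR and 6007 in SP. STC2 was 21.8-fold lower in NR than in Ab (log2 fold change -4.45, SE 0.054) and 21.1-fold lower in SP than in Ab (-4.40, SE 0.060). Among the genes with a mean of at least 100 counts in either group compared, it held place 8 of 11088 in the order of falls in NR and place 6 of 11229 in SP. Over all genes tested, these were places 15 of 15009 and 17 of 15068. The NR and SP comparisons share the Ab libraries, here and throughout.

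**Figure D1:**
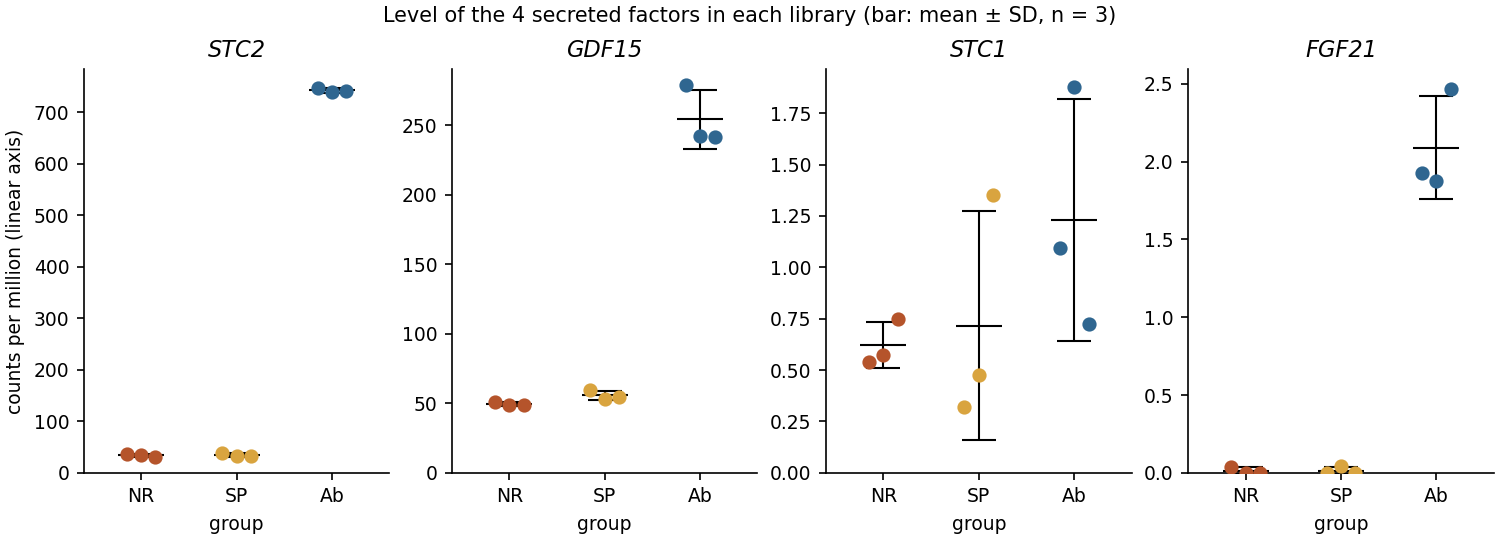
Level of each member in CPM (vertical, linear axis starting at 0, a scale for each gene) in the 3 libraries of the NR, SP and Ab groups (points), with the mean and SD (bar, n = 3). The Ab libraries stand apart for STC2, GDF15 and FGF21, with STC2 between 739 and 748 CPM there, while the groups overlap for STC1.

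GDF15 (ENSG00000130513, chr19:18485541-18499986, plus strand, GRCh37, protein-coding, no exon bases shared) showed the same order of groups over a narrower range. It had 1315, 684 and 780 counts in NR, 1296, 1232 and 1132 counts in SP, and 5362, 6331 and 4991 counts in Ab. The Ab libraries again lay above all others. The lowest SP library lay above the highest NR library on the CPM scale (53.1 against 50.8 CPM). How many of all genes separate NR from SP in this way was not counted. The means were 49.5 ± 1.18 CPM for NR, 55.7 ± 3.22 for SP and 254 ± 21.2 for Ab (SD, n = 3). GDF15 was 5.12-fold lower in NR than in Ab (log2 fold change -2.36, SE 0.057) and 4.54-fold lower in SP than in Ab (-2.18, SE 0.061). In the order of falls among genes with a mean of at least 100 counts in either group compared, these were places 86 and 121. Over all genes tested, they were places 179 and 272.

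FGF21 (ENSG00000105550, chr19:49258781-49261590, plus strand, GRCh37, protein-coding, no exon bases shared) was read almost only in the Ab group. It had 37, 49 and 51 counts in Ab 1, 2 and 3, 1 count in NR 1, 1 count in SP 2, and 0 in the other 4 libraries. In each of those 4, 0 counts allow a level of up to 0.137 to 0.215 CPM (3 counts), which covers counting error only. The Ab mean was 2.09 ± 0.329 CPM (SD, n = 3). From the summed counts, the Ab rate was 116 times that of NR (95% exact interval 20.5 to 4615) and 137 times that of SP (24.1 to 5434). Each interval rests on 1 count in the gold-treated group, and FGF21 passed the filter on low counts only through the Ab libraries.

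STC1 (ENSG00000159167, chr8:23699442-23712319, minus strand, GRCh37, protein-coding, no exon bases shared), the paralog of STC2, was scarce in every group. It had 14, 8 and 12 counts in NR, 7, 11 and 28 counts in SP, and 21, 49 and 15 counts in Ab. The ranges overlapped, since SP 3 lay above Ab 1 and Ab 3 in CPM. The log2 fold change was -1.04 (SE 0.37) in NR and -0.83 (SE 0.47) in SP relative to Ab, and without SP 3 the latter was -1.63. STC2 and STC1 therefore stood at very different levels in the same libraries. In reads per kilobase of exon and scaled to library size as CPM is (RPKM), STC2 averaged 147 and STC1 0.298 in Ab, and 6.69 and 0.150 in NR.

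Levels of different genes were compared only in RPKM. In Ab the order of the means was STC2 (147 ± 0.902), GDF15 (122 ± 10.2), FGF21 (1.55 ± 0.244) and STC1 (0.298 ± 0.142), and no 2 neighbours in that order overlapped. In NR the order was GDF15 (23.7 ± 0.565), STC2 (6.69 ± 0.520), STC1 (0.150 ± 0.027) and FGF21 (0.0095), and in SP GDF15 (26.7 ± 1.55), STC2 (6.92 ± 0.745), STC1 (0.173 ± 0.135) and FGF21 (0.011) (SD, n = 3), and again no neighbours overlapped. By this measure the first and second places were exchanged between Ab and the gold-treated groups. The lengths join the exons of all annotated transcripts of a gene. The close order of STC2 and GDF15 in Ab depends on them, and other lengths were not tried. Within each library the ratio of STC2 to GDF15 per exon length lay at 0.262 to 0.294 (NR libraries), 0.250 to 0.273 (SP libraries) and 1.11 to 1.26 (Ab libraries). The 4 members together took 80.2 to 98.9 CPM in the gold-treated libraries and 985 to 1030 CPM in Ab.

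**Figure D2:**
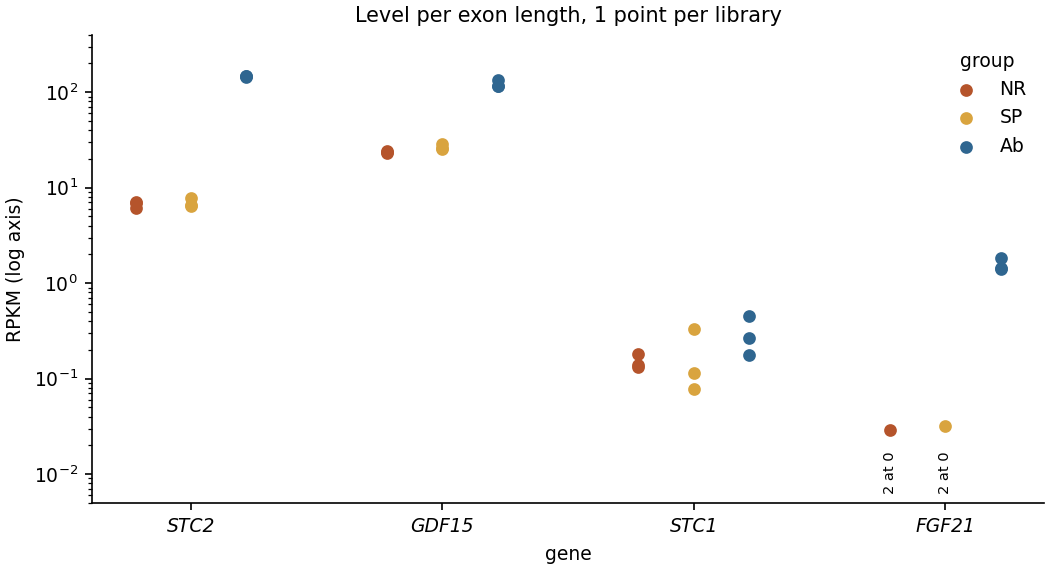
Level of each member in RPKM (vertical, log axis), 1 point per library, by group; libraries at 0 counts cannot be drawn on a log axis and are given as text. STC2 lies above GDF15 in Ab (147 and 122 on average) and below it in NR (6.69 and 23.7) and SP (6.92 and 26.7).

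The comparison of nanorods with nanospheres, which the choice of members did not use, asked whether these transcripts differed between the particle types at equal antibody. In the study the rods and spheres also differed in dimensions, supplier and measured surface charge, so shape cannot be told apart from these. None of the 3 members tested passed the adjusted p, and FGF21 was too scarce to test. In the fit of all genes, 66 of 14903 (0.443%) passed the adjusted p and 3 (0.0201%) were also at least 2-fold apart, namely PBX2, TAF10 and RP11-152F13.3, which were named after their values were seen. STC2 differed by a log2 fold change of -0.05 (SE 0.075, 95% interval -0.20 to 0.11, edgeR adjusted p = 0.852, NR relative to SP). GDF15 differed by a log2 fold change of -0.17 (SE 0.056, interval -0.28 to -0.05). Its unadjusted edgeR p was 0.00564 and its adjusted p 0.174, and 1922 of all 14903 genes tested had an unadjusted p under 0.05. For STC1 the interval was wide, from -1.15 to 0.75 (log2 fold change -0.20, SE 0.46, edgeR adjusted p = 0.898), and without SP 3 the sign turned (0.61). A 2-fold difference in either direction lay outside the intervals of STC2 and GDF15. The interval of STC1 held a 2-fold lower level in NR but not a 2-fold higher one.

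Several transcription factors and feedback regulators of the ISR were lower in both gold-treated groups, while none of the 4 eIF2α kinases was. Of 16 genes from the eIF2α kinases to the transcription factors, 8 were called lower and 0 higher in NR than in Ab, beside 10.3% called lower and 12.4% called higher of the 15009 genes tested. In SP the counts were also 8 and 0 of 16, beside 10.6% and 12.6% of 15068 genes. The 8 were ATF4, DDIT3, ATF3, CEBPB, CEBPG, TRIB3, PPP1R15A and NUPR1 in each comparison, NUPR1 being named after its values were seen. The median log2 fold change of the list was -1.04 in NR and -1.10 in SP, beside -0.0055 and -0.0067 over all genes tested. The list was chosen with these data known and is not independent evidence of a direction.

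ATF4, the central transcription factor, had 8566, 4265 and 4746 counts in NR, 5718, 6405 and 6117 in SP, against 15860, 20093 and 16507 in Ab. It fell 2.56-fold in NR (log2 fold change -1.36, SE 0.046, edgeR adjusted p = 1.72e-20) and 2.86-fold in SP (-1.52, SE 0.048, adjusted p = 1.11e-20). DDIT3, which encodes the stress factor CHOP, had 79, 42 and 35 counts in NR, 92, 76 and 70 in SP, against 862, 1141 and 825 in Ab. Its fall was 15.3-fold in NR and 11.8-fold in SP, the largest among the regulators in NR, although other genes overlap 39.6% of its exon bases, so some reads may be theirs. In SP the largest fall was that of NUPR1, 16.6-fold there and 13.0-fold in NR, with 16.5% of its exon bases shared. PPP1R15A, the subunit that brings a phosphatase to eIF2α, fell 7.71-fold in NR and 7.29-fold in SP. TRIB3, a pseudokinase that binds ATF4, fell 4.96-fold and 5.26-fold, and CEBPG, a partner of ATF4, fell 4.46-fold and 4.68-fold. CEBPB fell 3.09-fold and 3.40-fold, and ATF3 fell 2.98-fold and 2.56-fold. ATF5 fell by less than the 2-fold minimum, with log2 fold changes of -0.73 and -0.84. The kinase gene EIF2AK1 rose by 0.50 and 0.51 on the log2 scale and EIF2AK4 by 0.20 and 0.23, EIF2AK3 rose by 0.20 in SP, and all 3 were named after their values were seen. In the main edgeR fit, none of the 16 passed the adjusted p between NR and SP. There, 3 had an unadjusted p under 0.05, beside 1922 of all 14903 genes tested. ATF4 passed the adjusted p in 3 of 13 alternatives. Its log2 fold change (NR relative to SP) was 0.16 in the main fit and 0.11 to 0.21 over the alternatives.

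Targets of ATF4 that stay inside the cell were lower still as a list. Of 15 genes, 14 were called lower in NR and 13 in SP, and 0 were called higher in either, with medians of -1.73 and -1.69. The shares over all genes were 10.3% lower and 12.4% higher for NR, 10.6% and 12.6% for SP. CHAC1, which degrades glutathione, had 216, 131 and 136 counts in NR, 254, 211 and 195 in SP, against 3616, 4540 and 3551 in Ab, a fall of 20.5-fold in NR and 17.6-fold in SP. SESN2, a sensor of leucine that restrains mTORC1, fell 12.8-fold and 11.5-fold (edgeR adjusted p = 2.27e-27 and 2.46e-26). ASNS, asparagine synthetase, fell 5.95-fold and 5.96-fold, with 49.3% of its exon bases shared with another gene. PSAT1, an enzyme of serine synthesis, fell 4.32-fold and 4.56-fold. SLC7A5, a carrier of large neutral amino acids, was called in neither comparison (log2 fold changes -0.44 and -0.37), and DDIT4, an inhibitor of mTORC1, was called in NR and lay just under the 2-fold minimum in SP. None of the 15 passed the adjusted p between NR and SP, and 6 had an unadjusted p under 0.05, again beside 1922 of 14903.

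**Figure D3:**
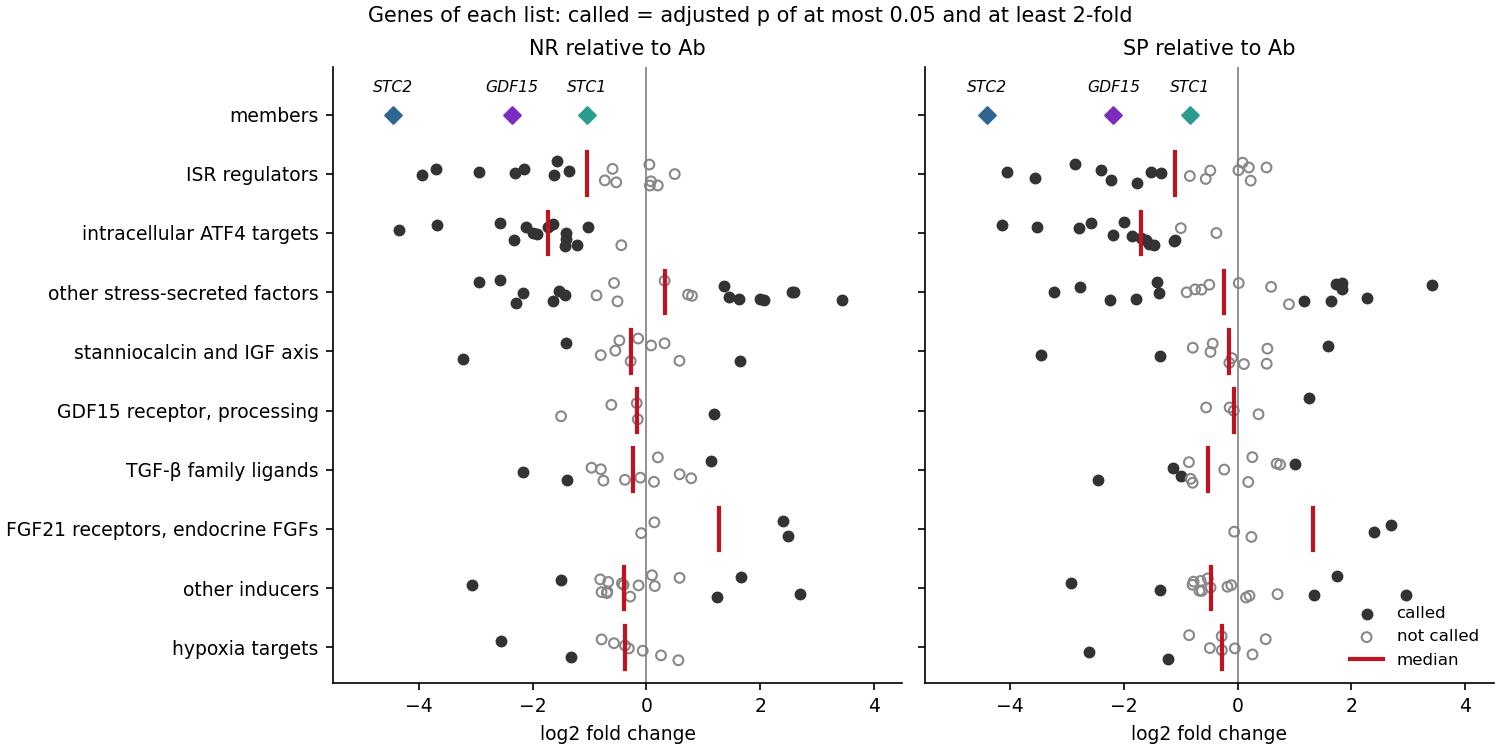
Log2 fold change relative to Ab (horizontal) of each tested gene of 9 lists (rows) in NR (left) and SP (right); filled points were called, open points were not, red bars are medians, and diamonds are STC2, GDF15 and STC1 (FGF21 is left out because its fit rests on 1 count). ATF4 targets have medians of -1.73 and -1.69, while the other stress-secreted factors spread to both sides of 0.

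The profile over the 9 libraries that was most like that of STC2 belonged to CHAC1. Likeness was measured as the root mean square difference between log2 CPM profiles, each centred on its own mean, over 14837 genes with a mean of at least 10 counts. The difference from STC2 was 0.13 for CHAC1, 0.21 for BEST1, a chloride channel, and 0.35 for UCN2, a secreted peptide of the corticotropin-releasing factor family. BEST1 had 26, 15 and 9 counts in NR, 17, 18 and 19 in SP, against 441, 538 and 428 in Ab. GDF15 was closest to ANPEP, a cell-surface aminopeptidase (0.066), F3, tissue factor (0.075), and DUSP4, a phosphatase of MAP kinases (0.077). F3 had 1060, 540 and 584 counts in NR, 959, 964 and 925 in SP, against 3653, 4912 and 3898 in Ab. For FGF21 the 3 closest were again CHAC1 (0.30), BEST1 (0.31) and UCN2 (0.37), but with a prior count of 0.5 in place of 2 only BEST1 kept its place among the 3. STC1 was closest to TAX1BP3 (0.32), ENSG00000261167 (0.34) and ATF4P4 (0.37), all with few counts. The 9 libraries fall into 2 clusters, so likeness mostly reflects the size of the step between the Ab libraries and the others.

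**Figure D4:**
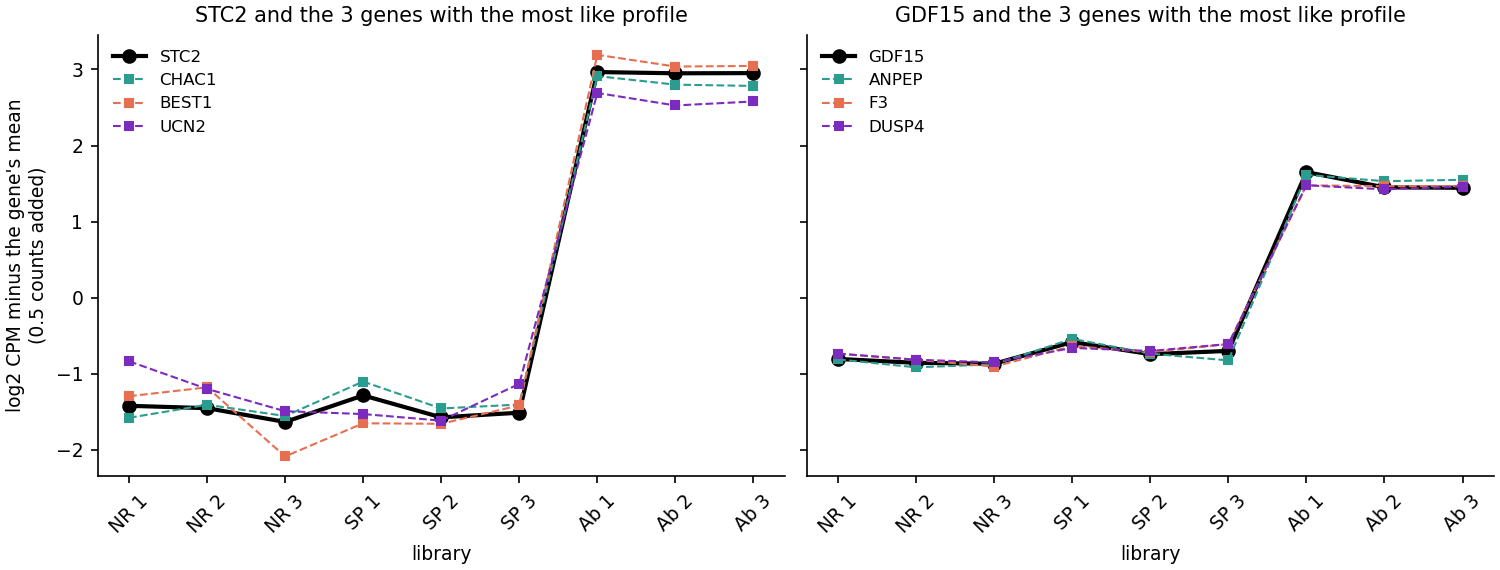
Log2 CPM minus the mean of the gene (vertical) in the 9 libraries (horizontal), for STC2 with CHAC1, BEST1 and UCN2 (left) and for GDF15 with ANPEP, F3 and DUSP4 (right); 0.5 counts were added before the log. All 8 profiles step up in the Ab libraries, and the 4 lines of GDF15 and its neighbours lie closer to each other than those of STC2.

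Genes beside the members on the chromosome did not share the size of their differences. The nearest tested protein-coding genes around STC2, chosen by position, were BNIP1 at 150 kb and BOD1 at 279 kb, with log2 fold changes of -0.66 and -0.90 in NR relative to Ab. Around GDF15, PGPEP1 at 4.78 kb and SSBP4 at 29.7 kb rose in NR relative to Ab, by 0.65 and 0.91 on the log2 scale (edgeR adjusted p = 7.19e-08 and 1.17e-12). Around FGF21, FUT1 at 0.134 kb fell (-1.61, adjusted p = 1.08e-10), with 79, 46 and 71 counts in NR and 193, 296 and 230 in Ab, while BCAT2 at 36.7 kb rose (1.16, adjusted p = 3.82e-14).

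The genes through which the stanniocalcins act on IGF were mostly within 2-fold. Of 11 tested genes of this axis (17 listed), 1 was called higher and 2 lower in NR, beside 12.4% and 10.3% of all genes tested, and the same 3 genes were called in SP, beside 12.6% and 10.6%, so the counts were near those shares. IGFBP1, a binding protein that is itself induced in stress, had 722, 387 and 419 counts in NR, 472, 527 and 527 in SP, against 5004, 6678 and 5180 in Ab. It fell 9.34-fold in NR (log2 fold change -3.22, SE 0.053, edgeR adjusted p = 4.19e-27) and 10.9-fold in SP. IGFBP3, the main carrier of IGF in serum, fell 2.66-fold and 2.56-fold, and IGFBP6 rose 3.14-fold and 3.02-fold. PAPPA, the protease that STC2 blocks, rose, with log2 fold changes of 0.32 and 0.51, under the 2-fold minimum (in NR 0.18 and no longer past the adjusted p without NR 3), with 21.1% of its exon bases shared with an antisense gene. IGFBP4, the substrate of PAPP-A, stood at 154 ± 0.887, 153 ± 0.802 and 214 ± 12.5 CPM for NR, SP and Ab (SD, n = 3), and IRS2, an adaptor of the insulin and IGF receptors, fell by 0.80 and 0.79 on the log2 scale. PAPPA2 and IGFBP5 had at most 4 counts in any library. The median of the axis was -0.28 in NR and -0.15 in SP.

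For GDF15, the receptor GFRAL had 0 counts in all 9 libraries. RET, its co-receptor, had 46 counts in NR 1 but 1 and 0 in NR 2 and NR 3, against 62, 69 and 58 in SP, against 45, 62 and 41 in Ab. NR 1 thus resembled the other groups and the remaining NR libraries did not, and without NR 1 RET was called lower in NR than in Ab (log2 fold change -5.82). Of 5 tested genes of the receptor and processing list, only PCSK7, a proprotein convertase, was called in either comparison, 2.28-fold higher in NR and 2.37-fold higher in SP, and over all genes 12.4% and 12.6% were called higher. FURIN, which can cleave the GDF15 precursor, fell by 0.61 and 0.55 on the log2 scale, and MMP14, which sheds GFRAL, fell by 0.15 and 0.14, in SP no longer past the adjusted p with DESeq2, with no filter on low counts, or without SP 3 or Ab 3. PCSK6, another convertase, had log2 fold changes of -0.17 (adjusted p = 0.0337) and -0.07 (adjusted p = 0.375), both from edgeR, and its call at the adjusted p in NR was lost with DESeq2 and without NR 1, NR 2, Ab 1 or Ab 2. The list medians were -0.17 and -0.07.

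Among 12 tested ligands of the TGF-β family, the NR group had 1 called higher and 2 called lower, the SP group 1 and 3, with medians of -0.24 and -0.51. Over all genes the shares called were 12.4% (higher) and 10.3% (lower) for NR, 12.6% and 10.6% for SP. The 3 of 12 called lower in SP lay above its share, a difference that was not tested, and the other counts of the list were near the shares. INHBE, the inhibin βE subunit and a known ATF4 target, had 25, 15 and 10 counts in NR, 9, 23 and 16 in SP, against 83, 110 and 75 in Ab, and fell 4.51-fold and 5.50-fold. INHBA was called lower in both and TGFB3 higher in both, while INHA was called lower in SP, and these 3 were named after their values were seen. In SP, TGFB3 and INHA lay at the 2-fold minimum, and the count called higher fell from 1 to 0 without SP 3, Ab 2 or Ab 3, with 1 fit of all 9 libraries, and with at least 10 counts required in every library. Over the alternatives, the count called lower ranged from 1 to 3 in SP and from 1 to 2 in NR. BMP2 rose, with log2 fold changes of 0.59 and 0.75, BMP6 fell, with -0.75 and -0.79, and INHBB fell by 0.96 and 0.86 on the log2 scale.

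For FGF21, the co-receptor β-klotho (KLB) had 1 to 8 counts in each library and FGFR2 at most 1. FGFR1 had 1182, 687 and 712 counts in NR, 1052, 1085 and 965 in SP, against 946, 1332 and 993 in Ab, with log2 fold changes of -0.09 and -0.06. FGFR3 stood at 72.9 ± 7.39, 77.8 ± 4.13 and 66.2 ± 4.04 CPM in NR, SP and Ab (SD, n = 3). Both were within 2-fold in either comparison. FGFR4 had 874, 439 and 530 counts in NR, 689, 667 and 657 in SP, against 124, 121 and 138 in Ab, and rose 5.62-fold in NR and 5.27-fold in SP (edgeR adjusted p = 7.28e-18 and 5.94e-17). FAP, the protease that inactivates FGF21 and also a fibroblast marker, rose 5.31-fold and 6.50-fold from 6, 14 and 2 counts in Ab. Of the 4 tested genes of this list (9 listed), 2 were called higher and 0 lower in each comparison, beside 12.4% and 12.6% of all genes called higher, with medians of 1.27 and 1.32. With at least 10 counts required in every library, 1 was called higher in each.

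For other routes known to act on the members, the counts were near the shares of all genes. Of 17 transcription factors and sensors, 3 were called higher and 2 lower in each comparison, beside 12.4% and 10.3% of all genes in NR and 12.6% and 10.6% in SP, with medians of -0.40 and -0.48. EGR1, an immediate-early factor, rose 3.15-fold in NR and 3.37-fold in SP. CREB3L3, a liver-enriched factor, was also called higher in both, and was named after its values were seen. MLXIPL, the carbohydrate-response factor ChREBP, had 107, 61 and 100 counts in NR, 101, 122 and 123 in SP, against 797, 1015 and 854 in Ab, and fell 8.36-fold and 7.65-fold. ERN1, the unfolded-protein sensor IRE1α, fell 2.82-fold and 2.57-fold. EPAS1, which encodes HIF-2α, fell by 0.81 and 0.79 on the log2 scale and HIF1A by 0.28 and 0.18, in NR no longer past the adjusted p without NR 1, NR 2 or NR 3, and in SP without SP 1, SP 2, SP 3, Ab 2 (-0.11) or Ab 3, or with at least 10 counts required in every library. PPARA had log2 fold changes of -0.14 and -0.11 (edgeR adjusted p = 0.0798 and 0.13).

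Of 9 tested targets of hypoxia-inducible factors, 2 were called lower and 0 higher in each comparison, beside 10.3% and 12.4% of all genes in NR and 10.6% and 12.6% in SP, with medians of -0.37 and -0.28. In SP, 1 was called higher without SP 3, Ab 1 or Ab 3 or with DESeq2, and 2 with no filter on low counts. The 2 called lower were VEGFA, the ligand of VEGFR2, which fell 5.90-fold and 6.15-fold (2869, 1314 and 1603 counts in NR, 2126, 2304 and 1986 in SP, against 11978, 15457 and 12262 in Ab), and ADM, adrenomedullin, which fell 2.51-fold and 2.33-fold. KDM3A, a histone demethylase, fell by 0.79 and 0.85 on the log2 scale, and P4HA1, a collagen prolyl hydroxylase, rose by 0.56 and 0.49 on that scale.

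Secreted factors outside the 4 did not share 1 direction. Of 21 tested in NR, 8 were called higher and 7 lower, and of 20 tested in SP, 7 were called higher and 6 lower, beside 12.4% and 10.3% of all genes in NR and 12.6% and 10.6% in SP, with medians of 0.32 and -0.24. With at least 10 counts required in every library, 5 were called higher and 7 lower in NR. LIF, a cytokine of the interleukin 6 family, had 505, 231 and 278 counts in NR, 412, 469 and 341 in SP, against 1835, 2194 and 1780 in Ab, and fell 4.91-fold and 4.75-fold. Clusterin (CLU), a secreted chaperone, ran the other way, with 6574, 3423 and 3807 counts in NR, 5257, 5470 and 5015 in SP, against 484, 547 and 456 in Ab, a rise of 10.9-fold in NR and 10.6-fold in SP. SLPI, a secreted protease inhibitor, rose 4.18-fold and 3.54-fold. In the main edgeR fit it was also the only gene of the lists described here that passed the adjusted p between NR and SP.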

How the data were processed

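RNA of 9 SNU5 libraries was sequenced after poly-A selection (NEBNext Ultra kit, paired-end reads). The authors deposited raw counts per gene, and per the labels and the study's methods these came from HISAT2 2.1.0 and a read counter. The labels name the mm9 build and the study's reporting summary hg19; the gene IDs are human Ensembl IDs. Strand setting, annotation release and sequencing batch were not given in the sources used here, and a batch that follows the groups cannot be told apart from them. Of 60880 gene IDs, 59858 matched a symbol, and 2 of 185 listed symbols (PECAM1 and an older name of CARS1) had no gene ID. Positions and exon lengths are from GENCODE (GRCh37), promoters from RefSeq (GRCh38.p14). Library totals and the floor of 3 counts set the precision, and intervals from counts cover counting error only.

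Each pair of groups was fitted on its own 6 libraries with edgeR 4.0.16 (quasi-likelihood test, TMM, filterByExpr with a minimum count of 10 and total of 15), with Benjamini-Hochberg adjustment over all genes. In simulated data 99% or more of genes changed 4-fold were recovered in each of the 3 comparisons. Alternatives were DESeq2 1.42.0, other size factors and filters, 1 fit of all libraries, a replicate block, removal of mitochondrial genes and of each library. The members, lists, motifs and tests were chosen with earlier results of these data known. Named genes were the members, a set named whatever its values, up to 4 genes with the smallest adjusted p in NR against Ab per list, any list gene past the adjusted p between NR and SP, and the 3 most like each member. Neighbours on the chromosome were added afterwards. Some results are not reported here.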

Additional observations from a re-analysis of the deposited data

Results flagged for a closer look

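SLPI differed between NR and SP by a log2 fold change of 0.24 (SE 0.046, edgeR adjusted p = 0.0181), with 257 ± 5.70 CPM in NR and 218 ± 18.0 CPM in SP (SD, n = 3). It had 6803, 3589 and 4036 counts in NR and 4515, 4823 and 4932 counts in SP, and was picked out because the test of the difference between the nanoparticle groups passed. The adjusted p was no longer past 0.05 without NR 2, NR 3, SP 1 or SP 2 (0.0588 to 0.104).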

How the results depend on the processing

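STC2 and GDF15 kept their direction relative to Ab under every alternative run, with log2 fold changes of -4.50 to -4.35 for STC2 and -2.39 to -2.12 for GDF15. Between NR and SP, no member passed the adjusted p under any alternative; GDF15 lay between -0.20 and -0.12 (adjusted p 0.161 to 0.481). STC2 ranged from -0.10 to 0.05 when single libraries were left out, turning sign without NR 3 (0.014) and without SP 1 (0.048), and STC1 from -0.55 to 0.61, turning sign without SP 3. Leaving out libraries moved STC1 relative to Ab between -1.30 and -0.56 in NR and between -1.63 and -0.35 in SP. The fitted log2 fold change of FGF21, which depends on the prior count, ranged from -8.33 to -6.08 in NR and from -8.50 to -6.20 in SP without single libraries, and DESeq2 gave -6.70 and -6.98. The causes were not tested.

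Genes called between NR and SP numbered 27 with no filter on low counts (328 past the adjusted p), 0 with DESeq2 (144 past the adjusted p), 66 with no fold minimum, and 0 to 28 without single libraries (10 to 188 past the adjusted p). With no fold minimum, 10916 and 11002 genes were past the test in NR and SP relative to Ab, against 3409 and 3502. Replicate numbers did not pair the samples: deviations of same-numbered libraries correlated at -0.032 to 0.028, and NR 1 was closest to Ab 3 (0.035). With a replicate block, 4 genes were called between NR and SP, 3414 between NR and Ab and 3493 between SP and Ab, and GDF15 between NR and SP was -0.17 (adjusted p 0.201). Of 520 list counts recomputed, 17 moved by over 1.5 times, and of 1359 values of other named genes, 23 fell short of the threshold and 9 newly passed it. Depth limits STC1 and FGF21, which had at most 51 counts in any library.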

Other observations

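Beside RET, 4 genes were read in NR 1 and in all SP and Ab libraries but had at most 1 count in NR 2 and NR 3, and all 5 were noticed after their values were seen. KIT had 167 counts in NR 1, 1 and 0 in NR 2 and NR 3, and 139 to 195 over the SP and Ab libraries. PDGFRA had 58 counts in NR 1, 0 in both other NR libraries, and 45 to 72 over the SP and Ab libraries. COL1A2, one of the fibroblast markers, had 37 counts in NR 1 and 0 in both others, and ENSG00000233995 had 68 and 0. No other library held a gene with at least 25 counts that had at most 1 count in both others of its group.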
